A study of Drosophila melanogaster with 39 samples.

Results

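Regenerating fragments of the Drosophila second leg disc were compared with a pooled leg disc reference on 4 arrays, the whole of that comparison among the 39 arrays of the study. The arrays were chosen by their labels, which name a regenerating disc sample and the leg reference, and all gene probes were kept. In the larva, a leg imaginal disc is a folded epithelial sac that will form the adult leg, and a fragment of it implanted into an adult female keeps dividing and can replace the missing part. Patterning in the disc rests on Hedgehog from posterior cells and on Wg and Dpp along the compartment boundary, which together set the nested domains of Dll, dac and hth from tip to base. Regeneration in discs is known to involve wound closure, JNK signalling, renewed proliferation and a delay of metamorphosis through the insulin-like peptide Ilp8.

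The fragments were the 3/4 fragment of second leg discs, collected after 3 to 5 days in the abdomen of adult females. The labels state that this fragment regenerates and does not change fate to wing, in contrast to the first leg disc, and they give neither the strain nor the sex of the donors. Each array carried the fragments against one reference, a pool of amplified RNA from wild-type leg discs of the third larval instar, of all 3 leg pairs and both sexes. The reference discs had developed in the larva, so culture in an adult host, age, leg pair, fragmentation and regrowth all differ together between the 2 sides and cannot be told apart. All RNA went through 2 rounds of linear amplification, and the discs had been washed to lower the share of fat body cells. Ratios are given as log2 of fragments over reference, so 1 unit is a 2-fold difference, with each array centred on its median. Arrays 1 and 2 carried the dyes in one orientation and arrays 3 and 4 in the other.

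The same reference was also hybridised against 4 samples of wild-type first leg discs, from single male OregonR wandering larvae, and against 6 samples of first leg discs expressing Wg throughout. The Wg-expressing larvae carried y,w,hs-flp, with vgBE-GAL4/UASGFP as reporter and the transgene Actin5C FRT y+ FRT wg+, and were heat shocked at 60 and 72 h. Both are intact discs left in the larva. These values are set beside those of the fragments below, and every such difference shares the reference. All 4 fragment slides and 3 of the 4 wild-type slides were of slide series 5, whereas the Wg-expressing discs were on series 6 and 7, so slide series and sample cannot be told apart there.

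The 4 fragment arrays held values for 4074, 10063, 4860 and 2969 gene probes, or 24.9%, 61.5%, 29.7% and 18.1% of the gene probes. Array 2 was by far the fullest and array 4 the sparsest. A gene was tested where 3 of the 4 arrays gave a value, which left 3230 of 11436 genes. No fragment array gave a value for 3764 genes (32.9%). Between fragment arrays, log2 ratios correlated across probes with r of 0.406 to 0.761, and array 3 had the widest spread, with an SD of 1.14. Pairs of Wg-expressing arrays gave r of 0.192 to 0.855 and pairs of wild-type arrays 0.217 to 0.725. Wild-type array 4 had r of only 0.217 to 0.301 with the others. It was the only wild-type array off slide series 5 and in the other dye orientation. The labels of wild-type array 3 give conflicting slide numbers. The median SD over probes measured on all 14 arrays against the reference was 0.487 in fragments, 0.384 in wild-type and 0.362 in Wg-expressing discs. The main test pooled its error over all 39 arrays where these SDs differ. The SEs below come from that fit, and n is the number of fragment arrays with a value. Counts from the 4 fragment arrays alone are therefore given beside the main test.

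In the main test 512 of 3230 genes (15.9%) were higher in fragments and 835 (25.9%) were lower, by limma with Benjamini-Hochberg adjustment at 0.05 over all 3883 probes tested. On the 4 fragment arrays alone 137 genes (4.24%) were higher and 230 (7.12%) lower. Counts of called genes in the lists below are to be read beside these shares. The split between higher and lower depended on the centring. With each array centred on all its values 615 of 1578 called probes were higher, against 926 of 1633 (56.7%) with arrays centred on the 1882 probes measured on every array. Under the latter 43.2% of all genes passed in either direction. That centring moved the median over all tested genes from -0.08 to 0.07. Among the 2312 genes measured on all 4 arrays, 906 (39.2%) had the same sign on each.

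**Figure D1:**
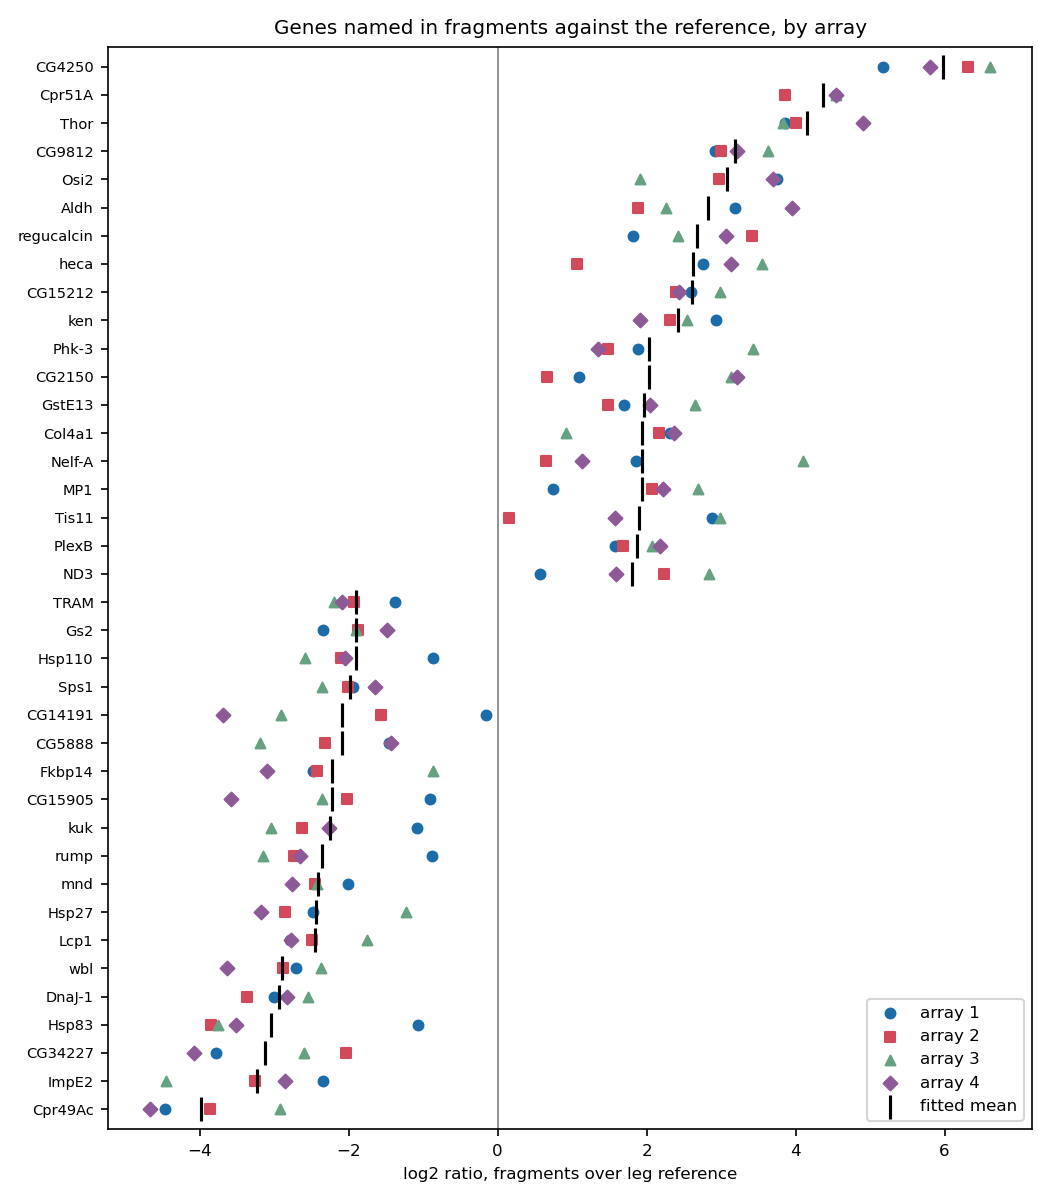
Log2 ratio of fragments over leg reference on each of the 4 arrays (x axis) for 38 called genes with the same sign on every array (y axis, ordered by the fitted mean). They are the 15 highest and 15 lowest with a given name and the 4 highest and 4 lowest with a CG number. Coloured symbols are arrays, the black bar is the fitted mean. CG4250, Cpr51A and Thor lie beyond 3.8 on every array, and Hsp83 and CG14191 have array 1 well to the right of the rest.

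Among genes with a given name and a value on all 4 arrays, the cuticle protein gene Cpr51A stood highest in fragments. It read 4.54, 3.86, 4.54 and 4.54 on arrays 1 to 4. Array 2 was the lowest and still above every array of the intact discs, where wild-type discs ran from -0.56 to 0.80 and Wg-expressing discs from -1.64 to 0.48. The fitted log2 difference from the reference was 4.37 ± 0.28 (SE, n = 4), or 20.7-fold, with a limma adjusted p of 2.17e-12. Against wild-type discs the difference was 4.23 (adjusted p 2.28e-08) and against Wg-expressing discs 4.85 (adjusted p 1.22e-10). Cpr51A encodes a protein of the chitin-binding cuticle family.

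Thor encodes the eIF4E-binding protein that represses cap-dependent translation and is switched on by FOXO when insulin or nutrient signalling is low. On arrays 1 to 4 it read 3.85, 4.01, 3.83 and 4.91. The arrays lay close together, with array 4 apart above the other 3. Its fitted difference was 4.15 ± 0.47 (SE, n = 4), or 17.8-fold, at a limma adjusted p of 6.87e-07. Thor was high in Wg-expressing discs too, which read 2.20 to 5.59 with a median of 4.02 over 5 arrays, and the difference of 0.29 did not pass (adjusted p 0.762). In wild-type discs it read 2.54, -0.39 and 1.22 on 3 arrays, all below the fragments, a difference of 2.75 (adjusted p 0.0127).

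The remaining marker, heca, encodes headcase, a protein of adult progenitor cells in imaginal tissue. Fragments read 2.75, 1.06, 3.54 and 3.14, with array 2 lowest. The fitted difference was 2.62 ± 0.36 (SE, n = 4), or 6.17-fold, at a limma adjusted p of 2.83e-06. Wild-type discs ranged from -0.34 to 1.95 and overlapped array 2, and the difference of 1.80 passed (adjusted p 0.0159). Wg-expressing discs were below the reference on all 6 arrays, from -1.90 to -0.36, and heca differed by 3.71 between fragments and these discs (adjusted p 2.56e-06).

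The other named genes high in fragments fall into several kinds by their known roles. The metabolic enzyme gene Aldh, an aldehyde dehydrogenase, read 3.19, 1.88, 2.26 and 3.95, with a fitted difference of 2.82 and a limma adjusted p of 0.000149. Its wild-type values ran from -1.53 to 2.37, so the groups overlapped, although the difference of 2.70 passed (adjusted p 0.0143). The calcium-binding protein gene regucalcin read 1.81, 3.41, 2.43 and 3.07, against -0.43 to -0.33 in wild-type discs and -1.42 to 0.19 in Wg-expressing discs. No array of either intact disc reached the fragments, and regucalcin differed by 3.05 from wild-type (adjusted p 0.0018) and 3.23 from Wg-expressing discs (adjusted p 0.000219). GstE13, a glutathione transferase gene of detoxification, was at 1.97, and Inos, the synthase that begins inositol production, at 1.39. Inos was below the reference in Wg-expressing discs on every array, from -1.71 to -0.49.

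Several regulators were also among the highest. The transcriptional repressor gene ken read 2.92, 2.32, 2.54 and 1.91, a fitted 2.42 ± 0.39 (SE, n = 4) at a limma adjusted p of 1.43e-05. It was high in Wg-expressing discs as well, at 0.80 to 2.44, and that difference of 0.82 did not pass (adjusted p 0.226). Tis11, which promotes decay of mRNAs, had a fitted 1.90 but spread from 0.15 on array 2 to 2.99 on array 3. Nelf-A, a subunit of the factor that pauses RNA polymerase II, had a fitted 1.93 that leaned on array 3 at 4.10. Without that array Nelf-A was at 1.26 with an adjusted p of 0.0638. PlexB, a semaphorin receptor of growing axons, was even across arrays at 1.58 to 2.18.

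Secreted and matrix genes made up another group. Col4a1, a basement membrane collagen IV chain that haemocytes and fat body also make, read 2.32, 2.17, 0.92 and 2.37. Array 3 was the low one, and it fell within the wild-type range of -0.61 to 1.25. The fitted value was 1.94 ± 0.33 (SE, n = 4), with a limma adjusted p of 3.33e-05. The other collagen IV chain gene, vkg, had values of 1.96 and 1.46 on arrays 1 and 2 alone and was not tested. MP1, a serine protease of the melanisation cascade, was at 1.93, the secreted pherokine gene Phk-3 at 2.03 and the Osiris family gene Osi2 at 3.08. Phk-3 was high in Wg-expressing discs too, at 2.02, and the difference of 0.02 did not pass (adjusted p 0.987).

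The highest gene of all with values on every array has only a CG number. CG4250 read 5.18, 6.32, 6.61 and 5.81, a fitted 5.98 ± 0.20 (SE, n = 4), or 63.0-fold, at a limma adjusted p of 1.6e-08. It had no value in wild-type discs, and the 3 Wg-expressing arrays with one read 0.14 to 0.47. CG9812, CG15212 and CG2150 followed at 3.19, 2.61 and 2.03. CG9812 was the steadiest of them, from 2.92 on array 1 to 3.63 on array 3, and differed by 3.09 from wild-type discs (adjusted p 5.28e-07).

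Of the 15 named genes highest in fragments, all 15 were also called on the 4 fragment arrays alone. Of the 14 with a test against wild-type discs 12 passed as higher, where 6.04% of all genes did. Against Wg-expressing discs 10 of 15 passed, where 8.76% of all genes did. These genes had been picked for their size against the same reference, so the shares are descriptive.

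Among genes with a value on all 4 arrays, the named ones lowest in fragments included cuticle genes, an ecdysone target and chaperones. Cpr49Ac, a cuticle protein gene, read -4.46, -3.86, -2.93 and -4.67, a fitted -3.98 ± 0.67 (SE, n = 4) at a limma adjusted p of 5.4e-05. Wild-type discs spread from -4.15 to 0.70 and overlapped the fragments, and the difference of -1.82 did not pass (adjusted p 0.178). ImpE2, a secreted product induced by ecdysone, read -2.34, -3.26, -4.45 and -2.86 and was also below the reference on every array of both intact discs. Lcp1, a larval cuticle protein gene, read -2.78, -2.50, -1.75 and -2.78. It was low in wild-type discs too, at -2.45 to -2.0, and the difference of -0.23 did not pass (adjusted p 0.818).

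The amino acid transporter gene mnd, named minidiscs for the small discs of its mutants, separated fragments from both intact discs. It read -2.01, -2.46, -2.43 and -2.77, tight across arrays, with a fitted -2.42 ± 0.23 (SE, n = 4) and a limma adjusted p of 4.18e-09. Wild-type discs read -0.72 to -0.29 and Wg-expressing discs -0.70 to 0.84, so mnd did not overlap with either. It differed by -1.93 from wild-type (adjusted p 0.000172) and by -2.33 from Wg-expressing discs (adjusted p 1.95e-06). Sps1, a selenophosphate synthetase homologue, was as even across arrays, at -2.35 to -1.65, and passed against both intact discs. The nuclear envelope protein gene kuk was at -2.25, the hnRNP gene rump at -2.35 and the glutamine synthetase gene Gs2 at -1.90, each called also on the fragment arrays alone. Of these, rump passed against both intact discs. kuk passed against Wg-expressing discs but not against wild-type discs (adjusted p 0.276). Gs2 passed against neither wild-type (adjusted p 0.241) nor Wg-expressing discs (adjusted p 0.898). CG34227, CG15905, CG5888 and CG14191 were the lowest among genes with a CG number. Of these 4, 3 passed as lower than wild-type discs, where 14.7% of all genes did. Against Wg-expressing discs 0 passed, where 19.1% of all genes were lower. In those discs CG34227 was fitted at -2.71 and CG15905 at -2.45. CG5888 lost its call without array 2, at -2.10 (adjusted p 0.0576), or without array 3, at -1.64 (adjusted p 0.145). CG14191 was at -0.16 on array 1 against -1.57 to -3.69 on the others, and without array 1 it stood at -2.70.

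Of the 15 named genes lowest in fragments, all 15 were called on the 4 fragment arrays alone. Of these, 8 passed as lower than wild-type discs, where 14.7% of all genes did, and 12 as lower than Wg-expressing discs, where 19.1% did. These genes too had been picked for their size on the same arrays, so the counts are descriptive.

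A few genes measured on 3 fragment arrays had still larger ratios. They lay outside the rule for named genes and were picked after their values were seen. Miox, which encodes the oxygenase that opens the inositol ring, read 5.25, 7.90 and 17.21 on arrays 1, 2 and 4. The value on array 4 is the largest deposited ratio of the study, and without it the fitted Miox difference was 6.20 in place of 10.94. In Wg-expressing discs 3 arrays read 0.37 to 1.96. Signal over background is not given, so the size of the Miox ratios could not be checked and is not to be read as a measured fold. CG13053 read 4.42, 3.51 and 4.65 on arrays 1 to 3. On the low side, the neuropeptide-like precursor gene Nplp3 read -3.98, -3.74 and -5.67 on arrays 1, 2 and 4, against -0.17 to 0.15 in wild-type and -0.35 to 0.21 in Wg-expressing discs. Nplp3 was therefore far below both intact discs, by -4.56 against wild-type (adjusted p 2.47e-09). Acp1, an adult cuticle protein gene, read -4.01, -3.38 and -3.87 on the same arrays while 5 Wg-expressing arrays stayed within -0.43 to 0.34.

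Cuticle protein genes moved both ways. The list was made by gene symbol and leaves out Acp1. Of 101 on the arrays, 69 had a value on some fragment array and 13 were tested, and 6 of these were higher and 4 lower, with a median of 0.81 over the 13 against -0.08 over all genes tested. On the fragment arrays alone 2 were higher and 3 lower. Below Cpr51A, Cpr64Ad read 1.98, 0.74 and 1.44 and TwdlE 2.22, 0.56 and 1.11 on arrays 1 to 3. Both were well above Wg-expressing discs, by 2.00 and 1.63, and TwdlE lost its call without array 1, at 0.84 (adjusted p 0.091). Cpr66D, Cpr5C and Cpr11B were higher at 1.15, 0.82 and 0.81. Without array 3 Cpr66D stood at 0.80 (adjusted p 0.0652) and Cpr11B at 0.61 (adjusted p 0.217), and Cpr11B lost its call without array 1 too (0.75, adjusted p 0.0842). Lcp2 was lower with Lcp1, at -3.55, -2.31 and -2.45 on arrays 1 to 3, and its ratio was -2.68 in wild-type and -2.37 in Wg-expressing discs. Cpr97Ea was lower by a small margin at -0.47.

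The genes that build and modify chitin and the apical matrix leaned upward. Among 14 tested of 37 on the arrays, 6 were higher and 1 lower, with a median of 0.41. On the fragment arrays alone 3 were higher. The chitin-binding protein gene obst-B read 1.19, 1.63, 1.02 and 1.88, a fitted 1.43 ± 0.20 (SE, n = 4) at a limma adjusted p of 2.48e-06. In Wg-expressing discs it lay below the reference on all 6 arrays, from -1.67 to -0.59, a difference of 2.48 (adjusted p 9e-08). mmy, which makes the sugar nucleotide that chitin synthase uses, read 1.14, 1.55 and 0.86 on arrays 1, 2 and 4 and differed by 1.10 from wild-type discs (adjusted p 0.0111). The chitin deacetylase gene Cda4 was at 1.03 and the chitin-binding gene obst-A at 1.14. obst-A lost its call without array 2, at 0.83 (adjusted p 0.0809), or array 4, at 0.94 (adjusted p 0.0509). The chitinase genes Cht6 and Cht2 passed at 0.72 and 0.35. Cht6 did not pass without array 3 (0.35, adjusted p 0.186), nor Cht2 without array 1 (0.25, adjusted p 0.125). knk, needed to organise chitin, was lower and even, at -0.50 to -0.61. Against Wg-expressing discs 8 of 14 matrix genes were higher and 1 lower, where 8.76% and 19.1% of all genes were.

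**Figure D2:**
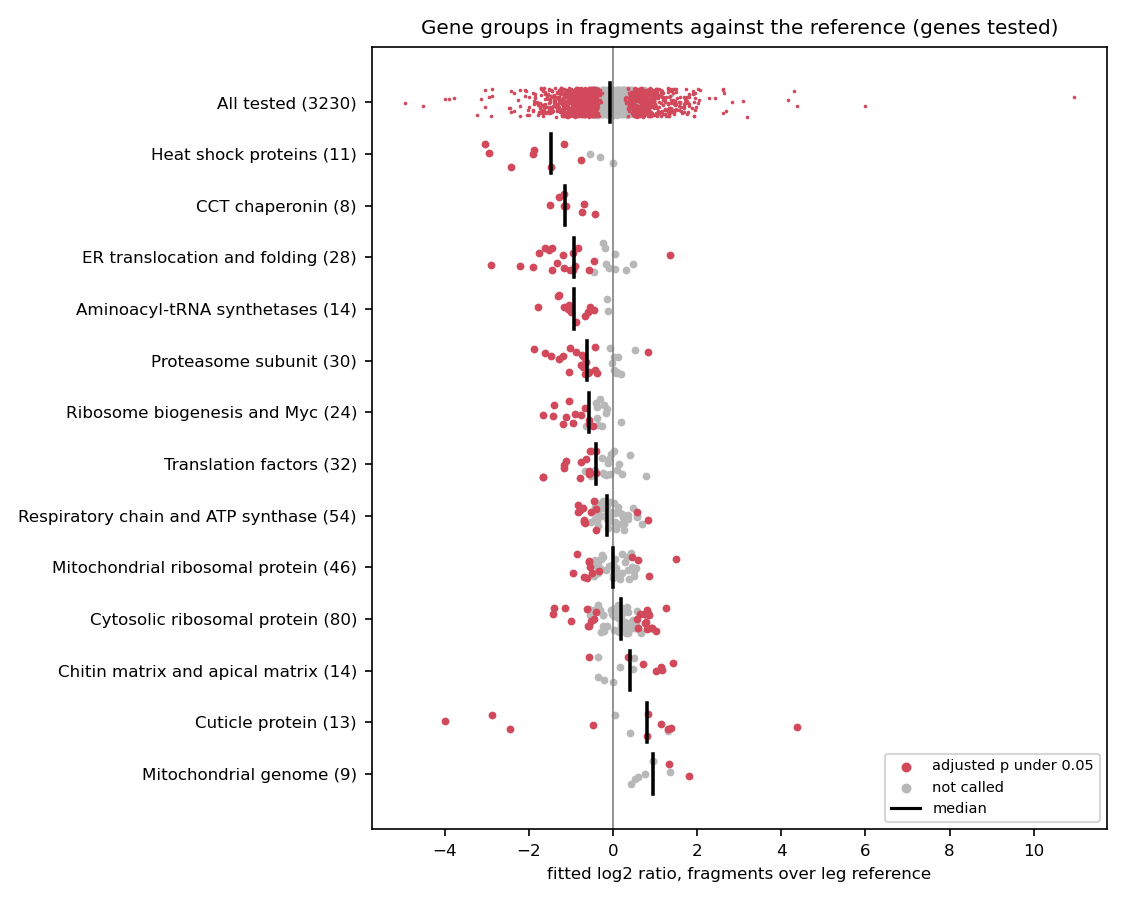
Fitted log2 ratio of fragments over leg reference (x axis) for each tested gene of the groups shown and for all genes tested (y axis, with the number tested). Red points passed at an adjusted p of 0.05, grey points did not, and black bars are medians. The medians of heat shock proteins (-1.48), CCT chaperonin (-1.14) and ER genes (-0.93) lie left of that of all genes (-0.08), and the CCT points are all red.

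Chaperones were low in fragments as a group. Of 11 heat shock genes tested, from 22 on the arrays, 8 were lower and none higher, with a median of -1.48. On the fragment arrays alone 6 were lower, and the median by array was -1.02, -1.60, -1.12 and -2.27. Hsp83, the cytosolic Hsp90, read -1.07, -3.85, -3.75 and -3.51. Array 1 stood apart, and without it the fitted value of -3.04 became -3.76. Array 1 lay at the lower edge of the Wg-expressing discs, which ran from -1.07 to 0.67, and Hsp83 differed from them by -2.56 (adjusted p 0.00488), whereas the difference of -1.80 from wild-type discs did not pass (adjusted p 0.0779). DnaJ-1, the Hsp40 partner of Hsp70, read -3.01, -3.36, -2.54 and -2.83, a fitted -2.93 ± 0.49 (SE, n = 4) at a limma adjusted p of 2.43e-05.

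The small heat shock gene Hsp27 read -2.47, -2.86, -1.23 and -3.18 and was 4.03-fold lower than in wild-type discs (adjusted p 0.000668). Hsp23 was at -1.88, Hsp110 at -1.90 and Hsp67Ba at -1.48. Hsp60A, of the mitochondrial matrix, passed at -1.17 but not without array 3 (-0.77, adjusted p 0.0645). Hsp22 and Hsp26 did not pass and changed sign between arrays, Hsp26 from -2.46 on array 4 to 1.73 on array 3. Against wild-type discs 3 of 11 heat shock genes were lower, where 14.7% of all genes were. Against Wg-expressing discs 6 of 11 were lower, where 19.1% of all genes were.

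All 8 subunit genes of the CCT chaperonin, the ring that folds actin and tubulin, were tested and lower, with a median of -1.14. On the fragment arrays alone 4 were. The CCT, ER and tRNA synthetase lists were drawn up after values had been seen. CCT8 read -0.57, -1.44, -1.61 and -1.04 and CCT3 -0.53, -1.85, -0.97 and -1.29, so array 1 was the mildest in both. The same held for the group, whose median was -0.53 on array 1 and -1.37 on array 2. Wild-type discs had 2 of these 8 genes lower than the reference, where 10.1% of all genes were, and a median of -0.17. Fragments were lower than wild-type discs in 5 of 8 and lower than Wg-expressing discs in 6 of 8, where 14.7% and 19.1% of all genes were.

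Genes for entry into and folding within the endoplasmic reticulum were lower by a similar size. Of 28 tested, 18 were lower and 1 higher, with a median of -0.93, and 12 and 1 on the fragment arrays alone. wbl, a disulphide isomerase relative that brings the sulfotransferase Pipe to the Golgi, read -2.71, -2.88, -2.37 and -3.64. Every fragment array lay below every wild-type array but one array of Wg-expressing discs, at -2.59, fell inside, and wbl differed by -2.05 from wild-type (adjusted p 0.00396) and by -2.21 from Wg-expressing discs (adjusted p 0.00049). CaBP1, a protein disulphide isomerase, was the steadiest, at -1.64, -1.97, -1.91 and -1.55 (fitted -1.77 ± 0.14, SE, n = 4, limma adjusted p 3.41e-11). The prolyl isomerase gene Fkbp14 was at -2.22 and the translocon partner TRAM at -1.90.

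Other steps of secretion were low too. Srp54k of the signal recognition particle read -1.45, -1.43, -2.37 and -1.19, and SsRbeta of the translocon-associated complex -2.11, -1.03, -1.27 and -1.40. Each of their fragment arrays was below the reference. The channel subunit Sec61alpha was at -1.46, the lectin chaperone Calr at -1.18, the Hsp90 of the ER Gp93 at -1.17 and Pdi at -0.95. The one gene that rose was Spase22-23, a signal peptidase subunit, at 0.37, 1.54, 1.88 and 1.65. Of the 28 genes, 13 were lower than in wild-type discs and 16 lower than in Wg-expressing discs, where 14.7% and 19.1% of all genes were.

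Proteasome genes, which encode the protease that degrades ubiquitin-tagged proteins, were mostly low. Among 30 tested of 46 on the arrays, 20 were lower and 1 higher, with a median of -0.61, while on the fragment arrays alone 6 were lower. By array 27, 27, 20 and 19 of them were below 0. Rpn10, a ubiquitin receptor of the regulatory particle, read -1.20, -2.14, -2.96 and -1.25, a fitted -1.89 ± 0.21 (SE, n = 4) at a limma adjusted p of 5.05e-08. No array of either intact disc was as low, with wild-type discs at -1.10 to 0.24. Rpn11, the deubiquitinase, read -1.16, -2.0, -1.37 and -1.41. The ATPase subunits Rpt6 and Rpt1 were at -1.28 and -1.61 and the core subunit Prosalpha7 at -1.04, and Rpt1 did not pass without array 3 (-1.11, adjusted p 0.0512). Prosbeta7 alone was higher at 0.84, with 2.74 on array 3, and without that array it stood at 0.27 (adjusted p 0.127). Wild-type and Wg-expressing discs had medians of 0.06 and 0.21 for this group. Fragments were lower than wild-type in 14 of 30 genes and lower than Wg-expressing discs in 19 of 30, where 14.7% and 19.1% of all genes were.

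**Figure D3:**
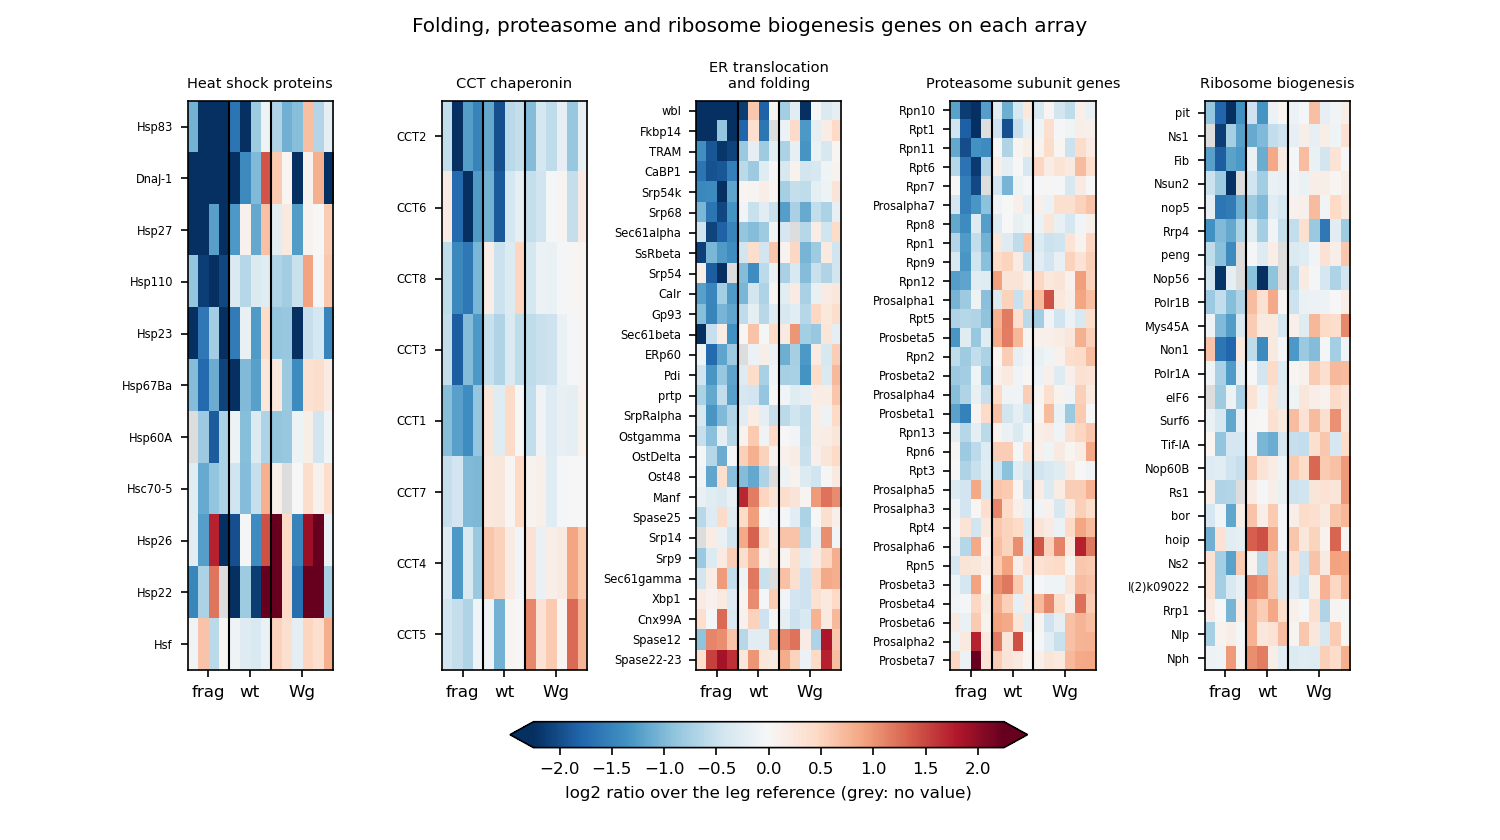
Log2 ratio over the leg reference (colour, blue below and red above the reference, grey without a value, saturating at the ends of the scale) for each tested gene (rows) of 5 groups on each array (columns) of fragments (frag), wild-type first leg discs (wt) and Wg-expressing first leg discs (Wg). The fragment columns are blue through most of the heat shock, CCT and ER panels, and array 1, their first column, is the palest for CCT and for several proteasome genes.

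Ribosome assembly genes were lower, and none was higher. Of 24 tested, from 42 on the arrays, 13 were lower, with a median of -0.58, and 5 on the fragment arrays alone. Fib, the methyltransferase fibrillarin of the nucleolus, read -1.21, -1.85, -1.20 and -1.30, a fitted -1.39 ± 0.20 (SE, n = 4) at a limma adjusted p of 2.48e-06. Its arrays were all below the wild-type range of -1.12 to 0.85. The RNA helicase gene pit was at -1.67, the box C/D protein gene nop5 at -1.13 and the exosome subunit gene Rrp4 at -1.05. The nucleostemin relative Ns1 was at -1.42, and did not pass without array 2 (-1.13, adjusted p 0.0942). Gar1, of the pseudouridylation particles, was at -0.96 against 0.72 in wild-type discs, a difference of -1.69 (adjusted p 0.00384). Its own value did not pass without array 3 (-0.79, adjusted p 0.0716) or without array 4 (-0.82, adjusted p 0.0519).

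Cytosolic ribosomal protein genes did not follow the assembly genes. Of 80 tested, 14 were higher and 10 lower, and on the fragment arrays alone 1 and 2 were. Their median ran from -0.28 on array 1 through 0.10 on array 2 to 0.50 on array 3 and 0.35 on array 4. The count of higher genes was 20 without array 1, 8 without array 2, 5 without array 3 and 8 without array 4, while the shares over all genes were 16.7%, 13.9%, 10.4% and 13.9%. It was 29, with 7 lower, under centring on the probes measured everywhere. RpL29 stood at 1.27 and RpL27A at 1.01, the latter at 0.40 without array 3 (adjusted p 0.242). RpLP0, of the ribosomal stalk, read -1.54, -1.47, -2.11 and -0.45 and RpL3 -1.13, -0.89, -1.30 and -1.21, both below the reference on every array. Wild-type discs had 42 of 80 such genes higher, where 8.00% of all genes were. Fragments were lower than wild-type in 19 of 78 and higher in none, where 14.7% and 6.04% of all genes were. Under the other centring that count was 9 lower and 1 higher, where 6.48% and 13.6% of all genes were.

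Translation factors gave 13 lower and none higher of 32 tested, with a median of -0.41, and 5 lower on the fragment arrays alone. The count was 4 of 32 without array 2, where 18.2% of all genes were lower, and 7 of 32 without array 3, where 17.2% were. eIF5, which triggers GTP hydrolysis at the start codon, read -0.91, -1.83, -0.76 and -0.93, with a limma adjusted p of 1.19e-06. It lay below both intact discs, by -1.05 against wild-type (adjusted p 0.000951) and by -1.27 against Wg-expressing discs (adjusted p 1.79e-05). The scaffold gene eIF4G1 was at -1.17. eIF3b and eEF1alpha1 were near 0 on array 1, at -0.12 and 0.05, and under -2.5 on arrays 2 and 3. eIF3b did not pass without array 2 (-1.34, adjusted p 0.061) or array 3 (-1.20, adjusted p 0.0959), nor eEF1alpha1 (-1.28, adjusted p 0.062, and -1.31, adjusted p 0.0654). The aminoacyl-tRNA synthetase genes encode the enzymes that load amino acids onto tRNAs. Of 14 tested, 12 were lower and none higher, with a median of -0.93, and the count was 5 without array 2 and 7 without array 3. On the fragment arrays alone 3 were lower. The steadiest was beta-PheRS, at -0.88, -1.55, -1.10 and -1.72 (limma adjusted p 1.35e-09), while AlaRS went from -0.15 on array 1 to -2.70 on array 3 and did not pass without array 2 (-1.42, adjusted p 0.0814) or array 3 (-1.27, adjusted p 0.144). Against wild-type discs 2 of 14 synthetase genes and 4 of 32 translation factors were lower and none higher. That is no more than the 14.7% of all genes. Against Wg-expressing discs 7 of 14 and 9 of 32 were lower, where 19.1% of all genes were, and 1 translation factor was higher.

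For the 7 groups described as low, no alternative centring or scaling raised a median above 0. With arrays scaled to equal spread the lower calls were 6 of 11 heat shock, 6 of 8 CCT, 15 of 28 ER, 9 of 30 proteasome, 5 of 24 ribosome biogenesis, 3 of 32 translation factor and 4 of 14 synthetase genes, where 309 of 3230 genes (9.57%) were lower, so the translation factors were at the share of all genes. Under centring on the probes measured everywhere they were 8, 7, 17, 17, 11, 9 and 9, where 19.3% of all genes were lower.

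Nuclear genes of the respiratory chain and ATP synthase were mixed by array. Of 54 tested, 2 were higher and 11 lower, with a median of -0.14, and none passed by limma on the fragment arrays alone, where 7 had an unadjusted p under 0.05. Array 3 had 39 of them above 0, whereas arrays 1, 2 and 4 had 12, 17 and 13. ND-49, a complex I subunit gene, read -1.35, -0.78, -0.78 and -0.45, and the ATP synthase genes blw and ATPsynC were at -0.82 and -0.78. ATPsynC was above the reference in wild-type discs, at 0.75, a difference of -1.53 (adjusted p 0.000133). The 2 higher genes, ND-B12 and ND-ASHI, were at 0.31 (adjusted p 0.443) and 0.22 (adjusted p 0.308) without array 3. Mitochondrial ribosomal protein genes gave 4 higher and 9 lower of 46, with a median of 0.00. Over all genes 15.9% were higher and 25.9% lower.

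Of 9 tested genes of the mitochondrial genome itself, 2 were higher and none lower, where 15.9% of all genes were higher, with a median of 0.95. With arrays scaled to equal spread none passed as higher by limma, where 4.80% of all genes did, and none differed from either intact disc past the threshold, with an unadjusted p under 0.05 for 0 genes against wild-type and 1 against Wg-expressing discs. By array, all 9 were above 0 on arrays 2 and 3 against 6 and 5 on arrays 1 and 4. ND3 read 0.57, 2.24, 2.83 and 1.59, a fitted 1.81 at a limma adjusted p of 0.00139. It was high in wild-type discs too, at 0.32 to 2.12, with which the fragments overlapped. ND4 read 1.13, 2.15, 1.36 and 0.68 and passed at 1.33, though not without array 2 (1.11, adjusted p 0.148) or array 3 (1.26, adjusted p 0.117). COX1, at 0.77, and ND6, at 1.36, did not pass.

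**Figure D4:**
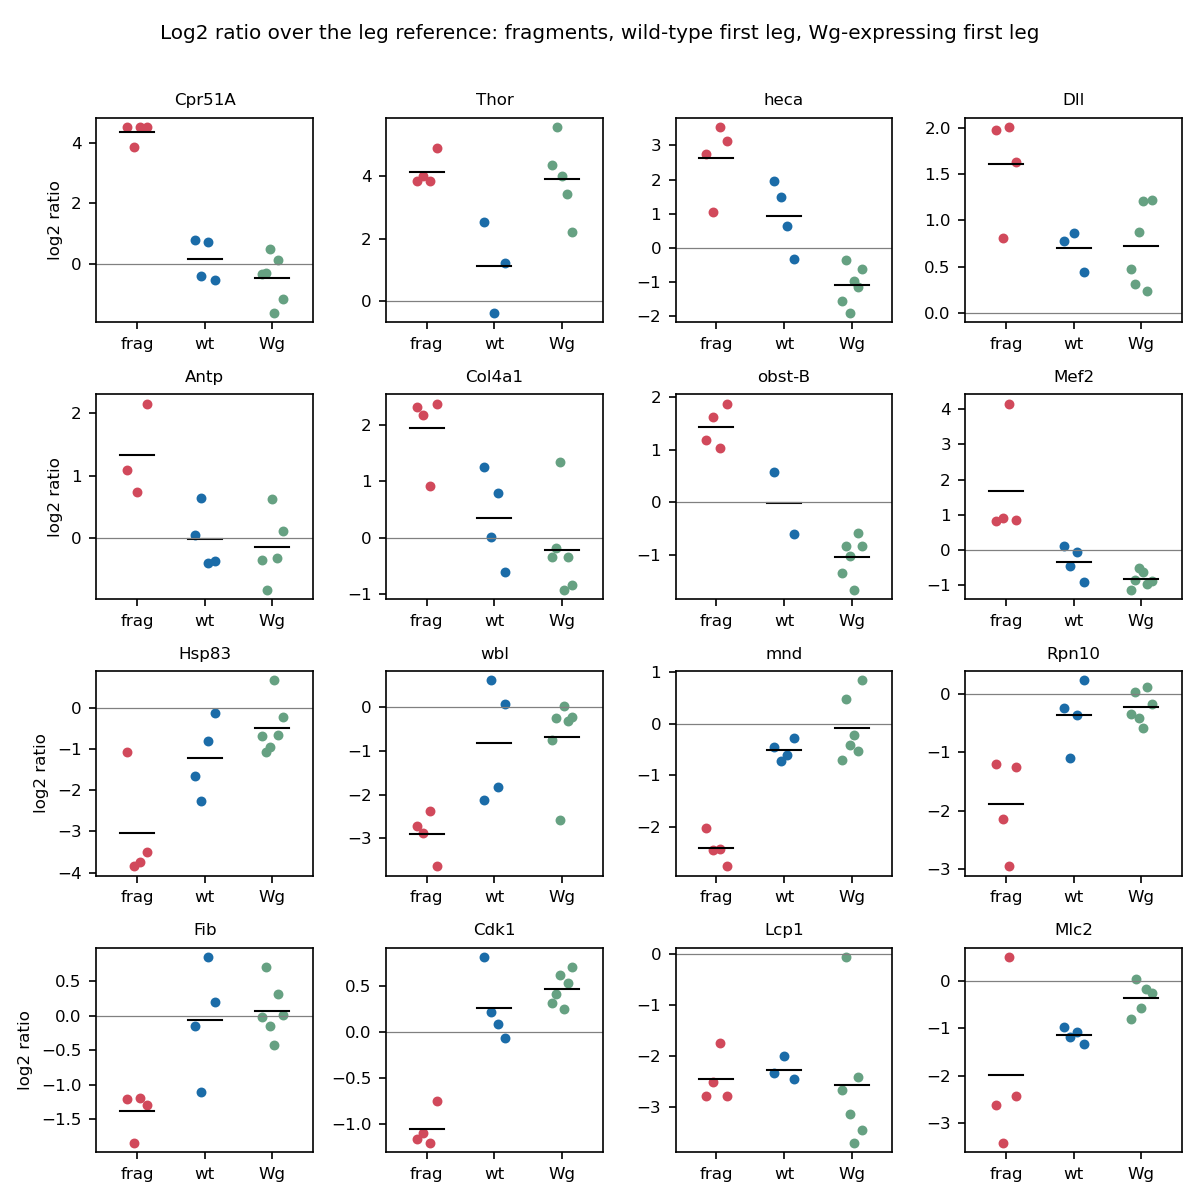
Log2 ratio over the leg reference (y axis) on each array for 16 genes in fragments (frag), wild-type first leg discs (wt) and Wg-expressing first leg discs (Wg), with black bars at the mean. Cpr51A, mnd, Cdk1 and Rpn10 fragments do not overlap with either intact disc, Thor is high in fragments and Wg-expressing discs, and Lcp1 is low in all 3.

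Genes that pattern the leg were largely near the reference. In the proximal-distal group 15 of 28 genes were tested, 2 were higher and 2 lower, with a median of 0.15. The shares over all genes were 15.9% higher and 25.9% lower. Dll, the homeobox gene that specifies the distal leg, read 1.97, 0.81, 2.01 and 1.63, a fitted 1.61 ± 0.20 (SE, n = 4) at a limma adjusted p of 5.65e-07. Array 2 was the low one and lay among the wild-type values of 0.44 to 0.86 and the Wg-expressing values of 0.24 to 1.22. The difference was 0.89 from both, with adjusted p of 0.0458 and 0.0121. hth, a marker of the proximal leg, read 0.22, 1.19, 2.72 and -0.21, with 2 arrays near 0. It passed at 0.98, yet was 0.39 without array 3 (adjusted p 0.396) and did not pass without array 2 (0.89, adjusted p 0.0805). Of the distal genes, al was at -0.81 and did not pass without array 2 (-0.80, adjusted p 0.0902) or array 3 (-0.49, adjusted p 0.305), and rn was at -0.49. B-H2, ap and tsh did not pass, and Lim1, at 1.05, rested on 3.14 on array 3. The intermediate gene dac had 1 value, 0.05 on array 2.

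The Hox genes tested were Antp and abd-A. Antp, which specifies the second thoracic segment and so the identity of the second leg, read 1.09, 0.75 and 2.16 on arrays 1 to 3 and had no value on array 4. All 3 lay above the wild-type first leg discs, at -0.40 to 0.64. The fitted 1.32 ± 0.32 (SE, n = 3) passed at a limma adjusted p of 0.00221, with differences of 1.33 from wild-type (adjusted p 0.0315) and 1.48 from Wg-expressing discs (adjusted p 0.00904). Without array 3 Antp was at 0.83 (adjusted p 0.106). The reference pools all leg pairs, so it holds second leg RNA as well. abd-A, of the abdomen, was at -0.09, and Scr, of the first leg, had 1 value of -0.16.

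Among 8 tested Hedgehog and compartment genes none was higher and 2 were lower, a share near the 25.9% of all genes. The posterior selector en read -0.90, 0.23, 0.57 and 0.14, and hh, the ligand gene that en switches on, 0.62, -0.65 and -1.14 on arrays 1 to 3, so both changed sign between arrays. The receptor gene ptc was at 0.38 (adjusted p 0.0585) and the effector ci at -0.55 (adjusted p 0.206). The 2 lower genes act in Hedgehog reception and release. The co-receptor gene ihog read 0.01, -2.47, -2.68 and -0.92 and the release factor gene disp -0.39, -0.29, -0.59 and -0.98. disp was above the reference in both intact discs, at 0.54 in each, a difference of -1.11 from wild-type (adjusted p 0.000507).

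On the dorsal-ventral axis 2 of 9 tested genes were higher and none lower, where 15.9% and 25.9% of all genes were. The higher genes were the ventral T-box gene mid, at 0.54, and the homeobox gene lbl, at 0.83. The ventral ligand gene wg read 0.68, -1.24, -0.13 and 1.12, with no common sign, and did not pass at 0.11 (adjusted p 0.806). Wnt6, its genomic neighbour, was at -0.07, and gsb, even at -0.60 to -0.92, did not pass either (adjusted p 0.209). dpp, the dorsal ligand, had values of 0.74 and -0.02 only. Among 12 tested genes of Wg signalling 2 were higher and 3 lower, near the same shares of all genes. The ligand gene Wnt4 read 1.23, 0.45, 1.16 and 1.03 (fitted 0.97, limma adjusted p 0.00187). wls, which carries Wnt ligands out of the cell, was at -1.05 and lost its call without array 2 (-0.65, adjusted p 0.338) or 3 (-0.62, adjusted p 0.402). In the fit without array 4 wls was unchanged at -1.05, with an adjusted p of 0.0502.

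None of 6 tested genes of wing fate passed in either direction by limma, in the 39-array fit or on the fragment arrays alone, and none had an unadjusted p under 0.05 in either. The wing selector vg had 1 value, -0.84 on array 2, and its partner sd read -0.47 and 0.56 on arrays 2 and 3, so neither was tested. ap was at -0.14 and pnr, of the notum, at 0.06.

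Among the Notch pathway 4 of 13 tested genes were higher and none lower, where 15.9% and 25.9% of all genes were. None passed by limma on the fragment arrays alone, where 3 had an unadjusted p under 0.05. The protease gene kuz read 1.75, 0.62, 3.14 and 0.36 and the ligand gene Delta 0.74, 0.28, 2.09 and 0.49. Array 3 was highest in both, and neither passed without it (kuz 0.90, adjusted p 0.0927, and Delta 0.50, adjusted p 0.137). The co-activator gene nej and the DNA-binding factor gene Su(H) passed at 0.82 and 0.49. nej lost the call without array 1 (0.83, adjusted p 0.0524) or 3 (0.38, adjusted p 0.423), and Su(H) without any 1 array, at 0.43 to 0.54. Of 11 tested target genes of the Enhancer of split and Bearded families 2 were lower, where 25.9% of all genes were. In Wg-expressing discs 12 of 16 were lower, where 11.5% of all genes were. Fragments were higher than these discs in 3 of 11 and lower in none, where 8.76% and 19.1% of all genes were, with a median difference of 0.673. E(spl)mgamma-HLH read -1.76, -1.15, -0.42 and -1.33, against -1.06 in Wg-expressing discs, from which it differed by -0.11 (adjusted p 0.851). The other lower gene, E(spl)mbeta-HLH, was at -0.56 and lost its call without array 1, 2 or 3.

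Genes of DNA replication and the cell cycle went both ways, with 7 higher and 8 lower of 36 tested and a median of -0.20. Both counts lie near the shares over all genes, 15.9% and 25.9%. On the fragment arrays alone 1 was higher and 2 were lower. RnrL, the large subunit of the enzyme that makes deoxynucleotides, read -0.87, -1.99, -1.89 and -1.74, a fitted -1.62 ± 0.24 (SE, n = 4) at a limma adjusted p of 5.22e-06. Cdk1, the mitotic kinase, read -1.16, -1.09, -1.20 and -0.75. It was above the reference on all 6 arrays of Wg-expressing discs, at 0.25 to 0.70, and differed by -1.52 from these (adjusted p 9.01e-07) and by -1.27 from wild-type discs (adjusted p 0.000111). Mcm7, of the replicative helicase, was at -1.02 and did not pass without array 2 (-0.88, adjusted p 0.109) or 3 (-0.66, adjusted p 0.264). On the high side feo, of the central spindle, read 0.70, 1.48, 0.63 and 1.65. The phosphatase gene stg, which drives entry into mitosis, passed at 0.85 but read 0.09 and 0.03 on arrays 2 and 4, and did not pass without array 1 (0.69, adjusted p 0.131) or 3 (0.46, adjusted p 0.352). CycD was at 0.53 and did not pass without array 3 (0.36, adjusted p 0.105), and PCNA and CycB, at -0.27 and -0.34, did not pass.

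Insulin and TOR signalling control growth in response to nutrients. Beside Thor, 1 of the other 8 tested genes of that list was higher and 3 were lower, where 15.9% and 25.9% of all genes were. Pdk1, a kinase below the insulin receptor, was at -0.88, and did not pass without array 2 (-0.81, adjusted p 0.0517) or array 4 (-0.53, adjusted p 0.159). It differed by -1.75 from Wg-expressing discs (adjusted p 0.000437). mTor itself was at -0.72 and lost its call without array 2 (-0.63, adjusted p 0.14) or 3 (-0.27, adjusted p 0.55). slif, an amino acid transporter of that pathway, was at -0.57 and lost the call without array 1 (-0.51), 2 (-0.53) or 4 (-0.43). gig, an inhibitor of TOR, was at 0.71 and lost it without array 1, 2 or 4, at 0.69 to 0.74. It had no value on array 3, and in the fit without that array gig was unchanged at 0.71, with an adjusted p of 0.0581. Ilp8, the peptide by which damaged discs delay metamorphosis, had 1 fragment value, 2.97 on array 2, against 4.95 to 6.22 in Wg-expressing discs, and was not tested.

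Of 7 tested JNK and wound response genes 2 were higher and 2 lower, where 15.9% and 25.9% of all genes were. The JNK phosphatase and target puc read 2.08, -0.20, 0.54 and 0.32, with array 1 alone high, and did not pass at 0.69 (adjusted p 0.177). The filamin gene cher was even at 0.98, 1.04, 1.28 and 0.66 and passed with a limma adjusted p of 0.00244, but it was 1.05 in wild-type discs. The myosin gene zip read 0.29, -1.62 and -2.34 and lost its call without array 2 (-1.03, adjusted p 0.132) or 3 (-0.59, adjusted p 0.423). Among integrin and basement membrane genes 3 of 11 were higher and 1 lower. Beside Col4a1, the integrin subunit gene Itgbn read 1.00, 1.87 and 2.18 on arrays 1, 2 and 4, and the focal adhesion gene stck 0.57, 0.37, 1.93 and 0.67. stck was 0.55 without array 3 (adjusted p 0.00885). Ilk, of the same adhesion complex, was at -0.53 and did not pass without array 2 (-0.45, adjusted p 0.0942) or 3 (-0.34, adjusted p 0.208).

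Of 5 tested immune genes 4 were higher, where 15.9% of all genes were, and none lower. On the fragment arrays alone 1 was higher, where 4.24% of all genes were. dl, the NF-kappaB factor of Toll signalling, read 1.98, 1.27, 0.60 and 1.44, a fitted 1.32 ± 0.16 (SE, n = 4) at a limma adjusted p of 2.02e-07. It was at 1.01 in Wg-expressing discs, from which the fragments did not differ past the threshold (adjusted p 0.262). The serpin gene Spn27A was at 0.71, Tep2 at 0.78 and PGRP-LF at 0.64, where Tep2 did not pass without array 1 (0.60, adjusted p 0.177) or 3 (0.78, adjusted p 0.131), nor PGRP-LF (0.40, adjusted p 0.0578, and 0.48, adjusted p 0.0573). Antimicrobial peptide genes had too few values for a test. Only examples are given from the 25 genes of the list with a value but no test. Drs read 3.64 and 3.25 on arrays 2 and 4, BomS3 0.61 and 3.86 on arrays 2 and 3, and Mtk 2.11 on array 2.

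Markers of other cell types that a cultured fragment could carry were checked. Ratios give no level, fewer cells of a type and less RNA per cell cannot be told apart in such samples, and the part of these cells in the results above was not tested. Of 21 haemocyte markers, 19 had a value on some fragment array, 6 were tested, and Col4a1 and the scavenger receptor gene crq were higher. Among the other tested members, LanB2 at 0.35 (adjusted p 0.124), SPARC at 0.13 (adjusted p 0.757) and Ppn at -0.86 (adjusted p 0.0701) did not pass. Tested members had medians of 0.40, -0.03, 0.12 and 0.72 on arrays 1 to 4. Among the 13 with a value but no test, some blood cell genes had a value on array 2 alone. Examples were eater at 4.76, PPO2 at 3.31, Hml at 2.84, Sr-CI at 2.84, atilla at 1.51 and Pxn at 1.05. These examples were all above the reference, while in Wg-expressing discs 5 of them were fitted at -0.75 to 0.50 and eater read 0.54 on 1 array. The rest of the 13 are not given here, so values picked from 1 array do not stand for the list. None of the 8 adult female fat body genes was tested, and the yolk protein genes Yp1, Yp2 and Yp3 read 0.11, -0.26 and -0.05 on array 2. Likewise none of 25 ovary and germline genes was tested. Of 5 tested larval fat body and serum protein genes regucalcin alone was higher than the reference, and Lsp2 read -0.68 on array 2. Against Wg-expressing discs 3 of the 5 were higher and none lower, with a median difference of 1.37. Against wild-type discs 1 of 4 was higher and none lower. Over all genes 8.76% were higher than Wg-expressing and 6.04% higher than wild-type discs. Adh, which fat body also expresses, read -3.29, -2.32, 3.05 and -3.84, so that array 3 alone was above the reference, and it passed without that array (-3.29, adjusted p 5.37e-05).

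Differentiated muscle genes were low on arrays 2 and 4, where the median of those tested was -1.23 and -1.28, and nearer the reference on arrays 1 and 3, at -0.24 and -0.04. Of 9 tested, 5 were lower and 1 higher, and 4 were lower on the fragment arrays alone. The flight muscle gene fln read -2.43, -2.88 and -2.84 on arrays 1, 2 and 4, and the myosin light chain gene Mlc2 -2.61, -3.42, 0.50 and -2.44. Array 3 was the exception for Mlc2, and without it the fitted -1.99 became -2.80. The actin genes Act79B and Act87E, which are alike enough in sequence that probes may not tell them apart, were at -1.63 and -1.38. Myosin heavy chain (Mhc) read -7.02 and -4.84 and Prm -3.48 and -2.91 on arrays 1 and 2, and Scp1, a sarcoplasmic calcium-binding protein gene picked after its values were seen, -5.60, -4.35 and -4.91. Against wild-type discs none of 8 tested muscle genes passed in either direction by limma, 2 had an unadjusted p under 0.05, and the median difference was -0.39. Mef2, the transcription factor of muscle and its precursors, was higher at 0.82, 0.91, 4.16 and 0.85. Array 3 stood apart, Mef2 was at 0.85 without it (adjusted p 0.0096), and on the fragment arrays alone it did not pass (adjusted p 0.0634). No array of either intact disc reached 0.82, and the difference was 2.05 from wild-type discs (adjusted p 0.00266).

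Over all genes, 193 were higher (6.04%) and 470 lower (14.7%) in fragments than in wild-type first leg discs, and 282 higher (8.76%) and 615 lower (19.1%) than in Wg-expressing discs. On the arrays compared alone the shares were 1.00% and 3.82% against wild-type (4.82% in either direction), and 5.34% and 12.1% against Wg-expressing discs. Under centring on the probes measured everywhere the balance turned, with 13.6% higher and 6.48% lower against wild-type (20.1% in either direction) and 16.2% and 10.5% against Wg-expressing discs. The share of called probes that were higher went from 28.6% to 69.0% against wild-type and from 32.5% to 62.5% against Wg-expressing discs. A general direction of these differences can therefore not be read from the counts, and single genes are given instead.

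Beside those described above, the genes called against wild-type discs with no overlap between arrays and the largest differences included tfc on the high side and san and Dlip2 on the low side. tfc read 2.45, 1.24, 1.37 and 1.30, with a difference of 1.37 (adjusted p 0.0131). san, an acetyltransferase gene needed for sister chromatid cohesion, read -1.94, -0.87, -0.74 and -1.49 where wild-type discs read 1.30, 0.48, 0.80 and 0.14. The 2 groups thus lay on opposite sides of the reference, a difference of -1.90 (adjusted p 0.000142). Dlip2 did the same, at -0.88 against 0.90. Over all genes measured on every array, 16.3% had no overlap with wild-type discs and 13.2% none with Wg-expressing discs. Against the latter, HnRNP-K read -0.35, -1.36, -3.75 and -1.40 and the forkhead gene fd96Cb -0.95, -1.51, -1.0 and -1.53. fd96Cb stood at 0.34 to 0.99 in Wg-expressing discs, a difference of -1.98 (adjusted p 0.00641). Its ratio to the reference did not pass without array 2 (-1.22, adjusted p 0.0536) or array 4 (-1.09, adjusted p 0.0741).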

How the data were processed

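The deposited values were log2 ratios of 2-colour spotted arrays, reference over fragments on every array per the labels, scanned on a GenePix 4000A. Normalization and filters within an array are not given in the sources used here, and the log base was taken from the values, which reach 17.08 in size. The log2 ratios were multiplied by -1 and centred on each array's median. Of 16359 gene probes, 15369 were paired with 11436 genes through RefSeq's table of release 6. The probe with the most values stood for its gene.

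limma 3.58.1 in R 4.3.3 fitted 11 group coefficients and dye orientation to 39 arrays, with Benjamini-Hochberg adjustment over the probes tested and a threshold of 0.05. A probe needed values on at least 66.7% of the arrays of each group compared. The labels call the samples independent replicates. The p-values and SEs of the main test rest only on the spread between replicates, pooled over the groups of the 39 arrays. The 4 arrays alone, other centring, scaling, filters, array weights and leaving out each array were alternatives, and the weights and the centring on shared probes were chosen after seeing the data. Fits were checked on simulated data.

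Named were the 15 highest and 15 lowest called genes with 1 sign on all 4 arrays, 4 of each known by number only, 6 of each per difference without overlap, the 3 markers, and of each list up to 5 with the smallest p plus those whose role is discussed. Other genes were chosen after their values were seen. Members and lists were chosen with earlier results of these data known, and the CCT, ER, synthetase, mitochondrial genome, nuclear pore and hnRNP lists after the values were seen.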

Additional observations from a re-analysis of the deposited data

Results flagged for a closer look

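On 11 of 165 named genes measured on all 4 fragment arrays (6.7%), 1 array lay far from the other 3 relative to their range, which chance does in about 1 of 20 groups. Array 2 was the far one for Cpr51A (3.86), Fib (-1.85), eIF5 (-1.83), the caspase gene Dronc (-1.58) and the Polycomb group gene Asx (0.41). Array 1 was far for Hsp83 (-1.07), tfc (2.45) and the chitin matrix gene knk (-0.50). Array 3 was far for Col4a1 (0.92) and Mef2 (4.16), and array 4 for Thor (4.91). Array 1 of Hsp83 and array 3 of Mef2 were the widest apart, at -1.07 against -3.85 to -3.51 and at 4.16 against 0.82 to 0.91.

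Of the named genes, 17 differences were those of genes called on opposite sides of the reference in fragments and in an intact disc, with the difference itself past the threshold by limma. Higher in fragments than in Wg-expressing discs were heca (3.71), Mef2 (2.51), obst-B (2.48), the titin gene sls (2.40), Inos (2.35), the cuticle protein genes Cpr11B (1.88) and Cpr66D (1.82) and the chitin deacetylase gene Cda4 (1.65). Lower were the glutathione transferase gene GstD9 (-1.80), Pdk1 (-1.75), Cdk1 (-1.52) and disp (-1.10). Against wild-type discs the chitinase gene Cht6 (1.22) was higher, and san (-1.90), Dlip2 (-1.78), ATPsynC (-1.53) and disp (-1.11) were lower.

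Genes with too few fragment values for a test were searched in the haemocyte and immune lists alone, so other genes were not looked at. The search asked for a fragment value more than 2 log2 units above the reference and above every intact disc array with a value. Low genes could therefore not be flagged. Far above every intact disc array with a value were the blood cell genes eater (4.76), PPO2 (3.31) and Hml (2.84) on array 2. The antifungal peptide gene Drs (3.64) was so on array 2, and BomS3 (3.86), a Bomanin peptide gene of the Toll response, on array 3. For eater only 1 array of the intact discs had a value. Each of eater, PPO2 and Hml had this 1 fragment value. Drs and BomS3 had 2 each, and the other value was 3.25 for Drs and 0.61 for BomS3.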

How the results depend on the processing

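Of 192 named genes called against the reference, none turned its sign under any alternative run, and 114 were still called on the 4 arrays alone, 144 on these with the dye term, 101 with arrays scaled to equal spread, 178 with centring on shared probes, 153 with array weights, and 172, 156, 140 and 175 without array 1, 2, 3 and 4. These genes had largely been picked for their size, sign or p on the same arrays, so a turned sign was unlikely from the start and the counts are descriptive. Probes called higher and lower against the reference (615 and 963) were 163 and 263 on the 4 arrays alone, 281 and 392 on these with dye, 174 and 346 scaled, 926 higher when centred on shared probes, and 419 to 825 and 675 to 1287 with 1 array left out. Against wild-type discs (216 and 539) they were 36 and 141 on the arrays alone, 31 and 88 with dye, 28 and 88 scaled, 522 and 235 centred on shared probes, 110 higher where every array had a value, 331 higher where at least 2 had, 130 higher with array weights, 357 lower on the 14 arrays against the reference, and 132 to 312 and 335 to 647 with 1 array left out. Against Wg-expressing discs (339 and 703) they were 207 and 449 on the arrays alone, 111 and 220 scaled, 645 and 387 centred on shared probes, 194 higher with every array, 516 higher with at least 2, and 260 to 487 and 507 to 908 with 1 array left out. The cause of these moves was not tested.

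Values not called turned sign for Hsp22, at 0.0522 on the 4 arrays with dye, abd-A and ap, at 0.0664 and 0.0172 with centring on shared probes, en, at -0.0569 as deposited and -0.0426 scaled, Wnt6, at 0.0682 with that centring and 0.11 with weights, pnr, at -0.0007 as deposited and -0.10 with weights, and Thor minus Wg-expressing discs, at -1.03 scaled. With 1 array left out Hsp26 ran from -1.34 to 0.12, Hsp22 from -1.16 to 0.24, abd-A from -0.24 to 0.0146, tsh from -1.48 to 0.0851, en from -0.14 to 0.25, hh from -0.89 to 0.10, wg from -0.25 to 0.58, Wnt6 from -0.42 to 0.14, pnr from -0.11 to 0.21 and Thor minus Wg-expressing discs from -0.12 to 0.66. No paired analysis was possible because the labels number no replicates across groups. Precision is limited by the 4 arrays and by values missing on sparse arrays, and signal over background is not given, so the reading of dim spots could not be checked.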

Other observations

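Genes of the nuclear pore, which gates traffic between nucleus and cytoplasm, were lower in 8 and higher in 1 of 15 tested, with a median of -0.49 against -0.08 over all genes, though 1 was lower on the fragment arrays alone. This list was added after the values were seen. Nup160, of the outer ring, read -0.11, -1.74, -2.56 and -1.33, so that array 1 alone was near 0 (fitted -1.43, limma adjusted p 0.000517). Nup188, of the inner ring, was at -0.88. mbo, at -0.95, did not pass without array 2 (-0.57, adjusted p 0.0619), and neither did Nup154, at -0.71 (-0.55, adjusted p 0.056). The higher gene, Nup35, was at 0.44 and did not pass without array 1, 2 or 3.

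Chromatin regulators of the trithorax group, which keep genes active, gave 3 higher and 3 lower of 14, and Polycomb group genes, which keep them silent, 2 higher and 1 lower of 10. For these and the following lists, the shares over all genes were 15.9% higher and 25.9% lower. The boundary factor gene mod(mdg4) was at 1.02 (limma adjusted p 1.24e-05) and e(y)3 at 0.98, while the cohesin gene vtd was at -1.18 and the histone methyltransferase gene Set1 at -1.01. Of 16 glycolysis and lactate genes 2 were higher and 5 lower, among them the glycogen synthase gene Glys at -1.54 and Pgk, a glycolytic kinase gene, at -1.21. Of 12 ecdysone response genes 2 were higher and 3 lower. The nuclear receptor gene Hr78 was at -1.30 (limma adjusted p 1.78e-05) and usp, the partner of the ecdysone receptor, at 1.06. Among cytochrome P450 genes 3 of 5 were higher and 1 lower. Cyp4e1 read 1.45, 1.39, 0.87 and 2.26, above the reference on every array, with a fitted 1.49 at a limma adjusted p of 2.31e-05.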
